A study of Mus musculus with 16 samples.

Results

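A set of 10 genes of the Notch pathway, chosen by name, was followed through both RNA-seq experiments on DN3 thymocytes, the immature CD4-CD8-CD25+CD44- T-cell progenitors. They were 2 receptors (Notch1 and Notch3), a receptor-modifying enzyme (Lfng), 2 members of the nuclear complex (Rbpj and Maml1), 4 targets (Hes1, Heyl, Dtx1 and Nrarp) and Fbxw7, which acts in receptor turnover. All 10 were found among the 22114 protein-coding genes of each count table, and all 10 passed the filter on low counts in every comparison. The GFP experiment compared 3 libraries of GFP-hi with 3 of GFP-lo DN3 cells from H2B-GFP;Lmo2Tg mice, which all carried the Lmo2 transgene and a doxycycline-inducible histone H2B-GFP fusion. Both fractions were taken from 3 cohorts of these mice, and the labels do not say which libraries share a cohort. Doxycycline was given for 6 weeks and then withdrawn for 2 weeks, so that cells that divided little kept the label (GFP-hi) and cells that divided more had diluted it (GFP-lo). For the age of these mice, a figure legend of the study gives 2 months, while its RNA methods give 6 weeks. The genotype experiment measured total DN3 cells in 3 libraries of wild-type, 2 of p21-/-, 2 of Lmo2Tg and 2 of Lmo2Tg;p21-/- mice aged 6 weeks. All mice were on the C57BL/6 strain, the Lmo2 transgene was driven by the CD2 promoter, which is active in the T-cell lineage, and p21-/- mice lacked the cell-cycle inhibitor encoded by Cdkn1a in every cell. By the study's methods, RNA came from pools of 3 to 5 mice, and nothing in the labels ties pools of equal number together.

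Notch receptors sit at the cell surface and are cut by proteases when a ligand on a neighbouring cell binds, which releases an intracellular part that enters the nucleus. There it joins the DNA-binding protein RBPJ and a coactivator of the Mastermind family and switches on target genes. Notch1 signalling commits progenitors to the T-cell lineage and supports them up to the DN3 stage, after which it falls, and mutations that keep it active are common in T-cell leukaemia. Among the targets, HES1 and HEYL are transcriptional repressors, NRARP feeds back on the nuclear complex, and DTX1 is a ubiquitin ligase that regulates Notch.

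Promoter windows were available for 8 of the 10 genes and for 2 of the 4 targets, Dtx1 and Nrarp. Each window ran from 250 bases before to 50 bases after a transcription start in RefSeq on GRCm38.p6. The letters TGGGAA, the core bound by RBPJ, and the longer GTGGGAA, which contains it, were searched on both strands. Of 32851 windows of 300 bases, 25.6% held TGGGAA and 6.38% held GTGGGAA. The Dtx1 and Nrarp windows are shown because both targets were called higher in Lmo2Tg cells. The Lfng window is shown because it was the only one of these genes with the longer motif, and it was chosen after the search. Capitals mark TGGGAA or its reverse complement.
Dtx1 (chr5:120711620-120711919, minus strand): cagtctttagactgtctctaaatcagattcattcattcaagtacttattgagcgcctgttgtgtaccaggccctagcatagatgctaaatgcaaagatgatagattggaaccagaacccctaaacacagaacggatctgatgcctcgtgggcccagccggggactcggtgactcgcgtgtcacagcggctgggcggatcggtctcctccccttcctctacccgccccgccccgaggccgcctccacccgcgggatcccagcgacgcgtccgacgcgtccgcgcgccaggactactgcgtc
Nrarp (chr2:25180508-25180807, plus strand): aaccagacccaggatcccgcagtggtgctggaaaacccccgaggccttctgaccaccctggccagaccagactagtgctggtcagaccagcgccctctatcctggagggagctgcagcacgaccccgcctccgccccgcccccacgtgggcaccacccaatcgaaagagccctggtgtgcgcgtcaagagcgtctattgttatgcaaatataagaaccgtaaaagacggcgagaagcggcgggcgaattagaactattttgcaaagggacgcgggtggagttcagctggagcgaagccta
Lfng (chr5:140607091-140607390, plus strand): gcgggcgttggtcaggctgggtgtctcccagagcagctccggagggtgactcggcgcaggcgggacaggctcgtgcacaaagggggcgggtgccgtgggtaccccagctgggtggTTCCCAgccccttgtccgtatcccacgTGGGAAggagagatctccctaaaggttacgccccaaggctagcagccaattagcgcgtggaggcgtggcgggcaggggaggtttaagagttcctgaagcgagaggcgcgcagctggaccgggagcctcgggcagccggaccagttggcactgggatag
Neither letter group was present in the Dtx1 or Nrarp window. In the Lfng window the core began 135 bases before the start on the opposite strand and again 108 bases before it on the strand of the gene, where the longer motif began 1 base earlier. Rbpj, with 2 windows that overlap, was the other gene with a match to the core.

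Total counts ranged from 26861394 to 31106213 in the GFP libraries and from 13864936 to 16837667 in the genotype libraries. All 10 DN3 T-lineage markers were above 1 CPM (TMM-normalized CPM, the reads of a gene scaled to library depth) in every library. In the genotype experiment Lmo2 was at 0.0636 to 0.306 CPM without the transgene and at 41.4 to 106.9 CPM with it. Cdkn1a was at 14.3 and 17.7 CPM in p21-/- and at 4.35 and 3.50 CPM in Lmo2Tg;p21-/- libraries, against 26.3 to 49.0 CPM in the other genotypes, and the counts do not show which exons the reads lie in. GFP-hi replicate 3 stood apart, with 284.9 CPM of Lmo2 against 53.8 and 29.5 CPM in the other GFP-hi libraries, and 6.55 CPM of Cdkn1a against 35.8 and 29.9 CPM. The GFP comparison is therefore given over all 6 libraries and again without it.

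Per kilobase of exon (RPKM), Notch1 had the highest level of the 10 genes in wild-type DN3 cells, with 105.6 ± 11.1 RPKM (SD, n = 3). Notch3 followed with 70.7 ± 5.72 RPKM, then Hes1 with 42.4 ± 6.53 and Dtx1 with 21.5 ± 2.87 RPKM. None of these 4 neighbours overlapped in their wild-type libraries. Lfng (13.8 ± 2.4 RPKM), Maml1 (9.98 ± 0.182), Fbxw7 (7.52 ± 0.208) and Rbpj (5.07 ± 0.420) came next, also without overlap. Heyl and Nrarp were lowest, with 0.767 ± 0.106 and 0.654 ± 0.0413 RPKM, and their neighbouring libraries overlapped. An antisense gene overlaps 79.4% of the Nrarp exon, so the Nrarp level and rank may depend on how reads there were counted. In the GFP libraries Rbpj was the lowest of the 10 in GFP-lo cells, with 2.63 ± 0.223 RPKM (SD, n = 3), and Nrarp had 10.6 ± 2.59 RPKM. Levels were not tested between the tables, which were scaled separately and and appear to have been counted with different strand settings.

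**Figure D1:**
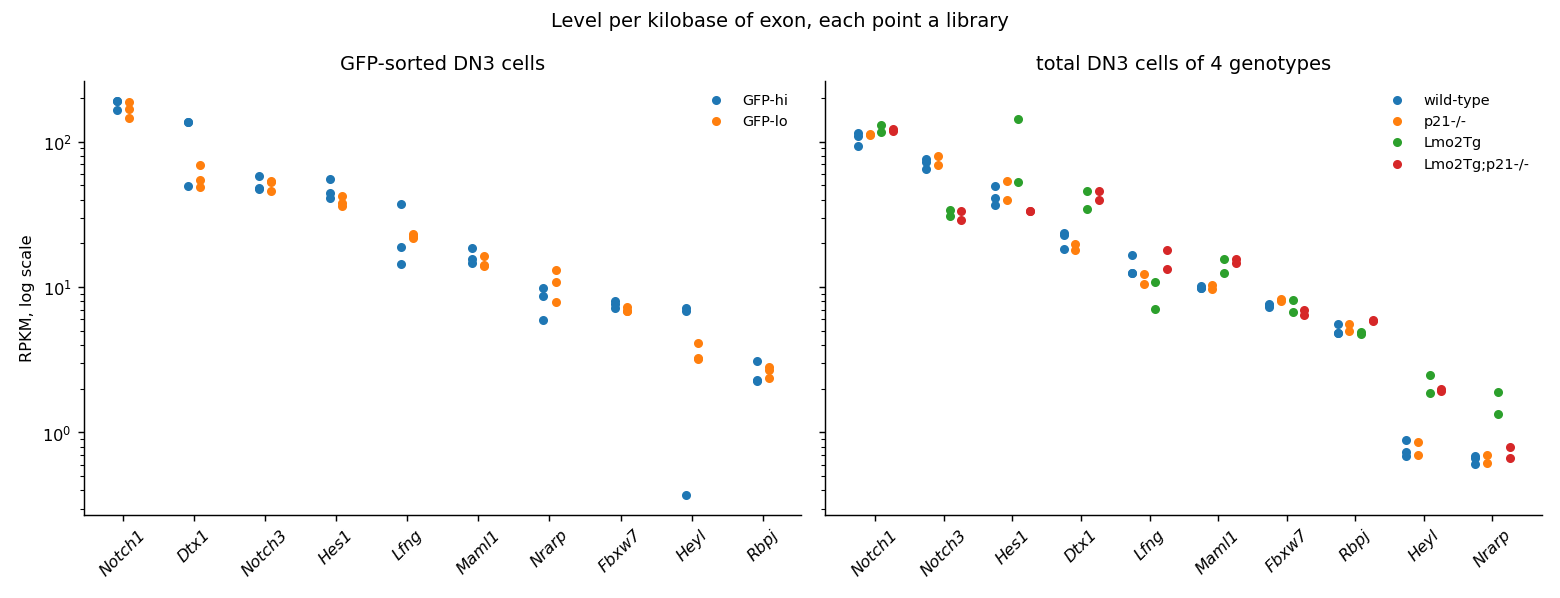
Level per kilobase of exon (RPKM, log axis) of the 10 genes, each point a library, coloured by group, in the GFP experiment (left) and the genotype experiment (right), with genes ordered by their mean in GFP-lo or wild-type libraries. Notch1 is highest at 105.6 RPKM in wild-type cells and Nrarp lowest at 0.654 RPKM, a rank that may depend on how reads over its antisense gene were counted.

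The first comparison asked whether the Notch pathway differed between label-retaining and dividing Lmo2Tg DN3 cells. Over all 6 libraries none of the 10 genes passed the test, which called genes at an adjusted p under 0.05 (edgeR quasi-likelihood fit, Benjamini-Hochberg over all genes tested). None had an unadjusted p under 0.05 either, while DESeq2 called 1 and limma-voom 0. Of the 11581 genes tested, 5.37% were called higher and 9.49% lower in GFP-hi cells. Without GFP-hi replicate 3, Dtx1 and Heyl were called higher and Lfng lower, against 19.5% of 11745 genes higher and 21.7% lower. The median log2 fold change of the 10 genes was 0.12 over the 6 libraries and 0.08 without that replicate, against 0.02 and 0.01 over all genes tested.

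Notch1 (ENSMUSG00000026923, chromosome 2 from 26457903 to 26516663, GRCm38), the receptor that drives T-lineage commitment, had 2719.1, 2704.7 and 2354.7 CPM in the GFP-hi libraries (replicates 1, 2 and 3) and 2663.8, 2385.9 and 2083.2 CPM in GFP-lo libraries. The groups overlapped, and they did not without GFP-hi replicate 3. The difference was 0.12 on the log2 scale (standard error 0.11, adjusted p = 0.48), and 0.20 (standard error 0.10, adjusted p = 0.17) without that replicate. Over the other 922 tested genes of chromosome 2 the median was -0.18. Notch3 (ENSMUSG00000038146, chromosome 17 from 32120820 to 32166852), a receptor that is itself a Notch target in T-cell progenitors, had 388.0, 380.1 and 473.3 CPM in GFP-hi and 437.2, 428.2 and 371.5 CPM in GFP-lo libraries. The ranges overlapped in part, with GFP-hi replicate 3 above every GFP-lo library and GFP-lo replicate 3 below every GFP-hi library, and the log2 fold change was 0.01 (95% interval from -0.27 to 0.28).

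Dtx1 (ENSMUSG00000029603, chromosome 5 from 120680202 to 120711927) had 716.0, 717.2 and 260.7 CPM in the GFP-hi libraries, in order of replicate, and 362.4, 285.0 and 257.2 CPM in GFP-lo libraries. GFP-hi replicates 1 and 2 lay above every GFP-lo library and replicate 3 lay within their range. Over 6 libraries the log2 fold change reached 0.90 (standard error 0.39, adjusted p = 0.17), and without GFP-hi replicate 3 it was 1.26 (standard error 0.13, adjusted p = 7.2e-04). Heyl (ENSMUSG00000032744, chromosome 4 from 123233556 to 123249875) split the GFP-hi libraries further. It was at 35.2 and 36.5 CPM for replicates 1 and 2 of GFP-hi, at 1.9 CPM for replicate 3, and at 21, 16.5 and 16.3 CPM in GFP-lo libraries. Thus replicate 3, with 51 reads, was below every GFP-lo library while the other GFP-hi libraries were above them. The log2 fold change came to 0.45 (standard error 0.89, adjusted p = 0.75), and 1.00 (standard error 0.12, adjusted p = 0.0012) without replicate 3.

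Lfng (ENSMUSG00000029570, chromosome 5 from 140607320 to 140615545), a glycosyltransferase that modifies Notch and its response to ligands, went the other way. It had 47.2, 35.9 and 93.9 CPM in the GFP-hi libraries, in order of replicate, and 54.3, 55.8 and 57.6 CPM in GFP-lo libraries. GFP-hi replicates 1 and 2 were below all GFP-lo libraries and replicate 3 was above them. The log2 fold change came to 0.08 (standard error 0.34, adjusted p = 0.89) over 6 libraries and -0.42 (standard error 0.11, adjusted p = 0.024) without replicate 3. Hes1 (ENSMUSG00000022528, chromosome 16 from 30064384 to 30067796) had 90.4, 82.9 and 113.1 CPM in GFP-hi and 86.2, 76.6 and 73.1 CPM in GFP-lo libraries. The groups overlapped, and the log2 fold change of 0.28 (standard error 0.13, adjusted p = 0.20) was not called in either fit. Nrarp (ENSMUSG00000078202, chromosome 2 from 25180758 to 25183339) had 22.6, 25.2 and 15.4 CPM in GFP-hi and 20.4, 28.1 and 33.7 CPM in GFP-lo libraries, which overlapped, and a log2 fold change of -0.38 (standard error 0.25, adjusted p = 0.34), beside the chromosome 2 median of -0.18. Hes1, Dtx1, Heyl and Nrarp, all known targets, thus had different orders among the same 6 libraries.

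Rbpj (ENSMUSG00000039191, chromosome 5 from 53466152 to 53657362), the DNA-binding subunit, spanned 28.7 to 39.5 CPM in GFP-hi and 30.4 to 35.9 CPM in GFP-lo cells. Maml1 (ENSMUSG00000050567, chromosome 11 from 50255634 to 50292311), its coactivator, ranged from 80.6 to 103.1 and from 77.6 to 90.1 CPM. Fbxw7 (ENSMUSG00000028086, chromosome 3 from 84815268 to 84979198), the substrate-binding part of a ubiquitin ligase that marks the Notch1 intracellular part for breakdown, ranged from 50.3 to 56.9 and from 48.3 to 51.6 CPM. All 3 overlapped between the groups, with log2 fold changes of -0.04, 0.14 and 0.12 and adjusted p of 0.86, 0.43 and 0.28.

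**Figure D2:**
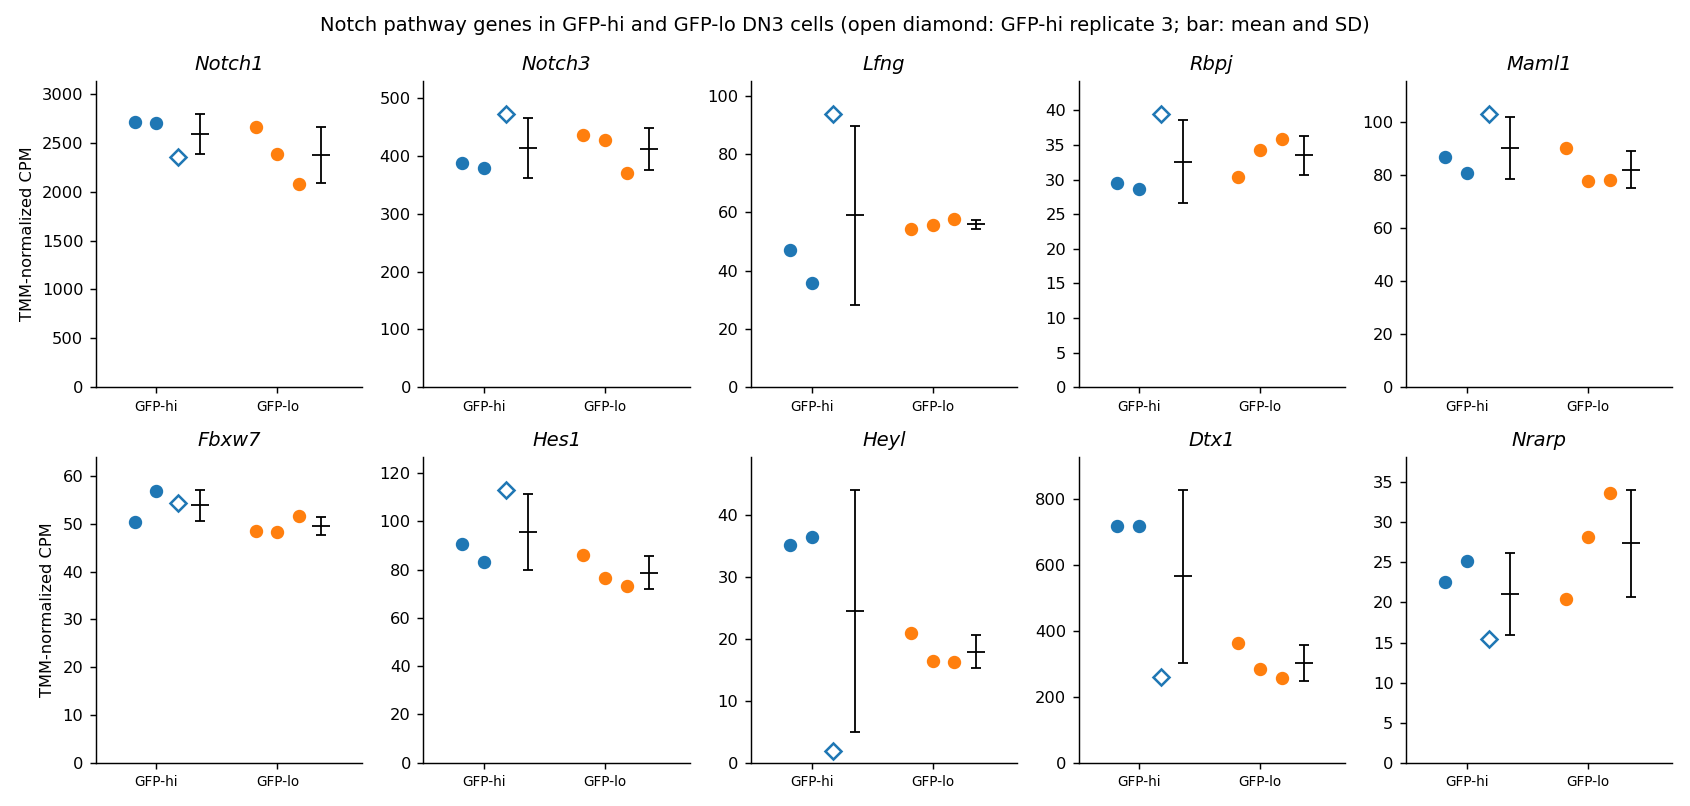
TMM-normalized CPM of the 10 genes in GFP-hi and GFP-lo libraries (linear axis from 0), each point a library, the bar the mean and SD of 3 libraries, the open diamond GFP-hi replicate 3. For Dtx1 and Heyl the filled GFP-hi points are above all GFP-lo points and the diamond is not; for Lfng the order is turned.

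Of 85 other Notch pathway genes in 9 lists, 72 passed the filter, and over 6 libraries 5 were called higher and 2 lower in GFP-hi cells, beside 5.37% of all genes higher and 9.49% lower. L3mbtl3, a repressor that binds RBPJ, had 69.2, 60.7 and 65.8 CPM in GFP-hi and 39.3, 32.8 and 36.9 CPM in GFP-lo libraries. It was higher in each GFP-hi library, replicate 3 included, with a log2 fold change of 0.84 (standard error 0.09, adjusted p = 0.0049). Il2ra, which encodes CD25 and so the marker on which DN3 cells were sorted, had 2457.8, 2286.5 and 3224.4 CPM against 1653.4, 1562.9 and 1760.5 CPM, a log2 fold change of 0.68 (adjusted p = 0.029). Spen, a corepressor partner of RBPJ, and Cbl, a ubiquitin ligase, were higher by 0.34 and 0.35 on the log2 scale. Jag2, the single ligand gene of 6 that passed the filter, had 5.58, 6.35 and 5.73 CPM in GFP-hi and 11.8, 11.6 and 8.47 CPM in GFP-lo libraries (log2 fold change -0.85, adjusted p = 0.027). Ep300, a coactivator acetyltransferase, was lower by a log2 fold change of -0.31. Dll1, Dll3, Dll4 and Jag1, the other ligands known to activate or bind Notch on neighbouring cells, had at most 10 reads in any library of either experiment.

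Without GFP-hi replicate 3, 16 of the 72 pathway genes were called higher and 15 lower, shares near the 19.5% and 21.7% of all genes, with a median log2 fold change of -0.01 against 0.01 over all genes. The T-lineage target list held calls in both directions, 4 higher and 5 lower of 15. GFP-hi libraries had 8 of 11 B-lineage markers above 1 CPM, against 2 to 3 of 11 in GFP-lo libraries, with summed levels of 30.7 to 59.8 and 25.6 to 29.2 CPM. Ms4a1, which encodes the B-cell antigen CD20, had 51, 222 and 60 reads in GFP-hi and 0, 0 and 1 in GFP-lo libraries. The DN3 markers summed to 9586.9 to 10390.2 CPM in GFP-hi and 8602.6 to 8967 CPM in GFP-lo libraries. Il2ra had the largest gap among them, with means of 2656.2 and 1658.9 CPM. Ptcra, Rag2 and Lck were also higher in every GFP-hi library than in every GFP-lo library, and the other DN3 markers overlapped between the groups. The early progenitor markers summed to 598 to 675.7 CPM in GFP-hi and 743.2 to 853.6 CPM in GFP-lo libraries. The summed dendritic list had 43.2 to 77.6 CPM in GFP-hi and 92.3 to 119 CPM in GFP-lo libraries, with 2 of 8 genes above 1 CPM in each. The 7 markers of later alpha-beta T cells summed to 547.8, 528.6 and 283.6 CPM in GFP-hi and 439.2, 385.4 and 351.8 CPM in GFP-lo libraries. In this sum GFP-hi replicates 1 and 2 were above and replicate 3 below the GFP-lo libraries, the order seen for Heyl. Of the 7 genes only Cd5 had that order. For Cd6 and Cd8b1 replicates 1 and 2 were above the GFP-lo range and replicate 3 within it, and Cd4 overlapped between the groups. Cd8a and Ccr7 were lower and Cd69 was higher in every GFP-hi library than in every GFP-lo library. The part of the listed cell types in the values above was not tested, and in bulk RNA fewer cells of a type cannot be told apart from less RNA per cell.

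The second comparison asked which Notch genes differed with the Lmo2 transgene in total DN3 cells, and it was made once with p21 (Lmo2Tg against wild-type) and once without it (Lmo2Tg;p21-/- against p21-/-). These 2 comparisons shared no library, although both came from 1 fit over 9 libraries. With p21 present, 5 of the 10 genes were called higher (Heyl, Nrarp, Hes1, Dtx1 and Maml1) and 2 lower (Notch3 and Lfng). Of 11840 genes tested, 19.7% were called higher and 16.9% lower. In p21-/- cells 3 were called higher (Heyl, Dtx1 and Maml1) and 1 lower (Notch3), against 16.3% of genes higher and 14.4% lower. The median log2 fold change of the 10 genes was 0.36 and 0.15, against -0.01 and 0.00 over all genes.

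Notch3 had 583.1, 611.4 and 520.9 CPM in wild-type, 643.6 and 556.2 CPM in p21-/-, 248.0 and 275.8 CPM in Lmo2Tg and 233.9 and 267.7 CPM in Lmo2Tg;p21-/- libraries. Every library with the transgene was below every library without it, and within each of these sets the genotypes overlapped. It fell by 1.13 on the log2 scale (standard error 0.11, adjusted p = 2.2e-05) with p21 and by 1.26 (standard error 0.11, adjusted p = 1.9e-05) without it. Notch1, in contrast, had 1557.1, 1628.0 and 1325.2 CPM in wild-type, 1618.4 and 1583.3 CPM in p21-/-, 1648.5 and 1865.4 CPM in Lmo2Tg and 1738.0 and 1676.3 CPM in Lmo2Tg;p21-/- libraries. The transgenic libraries were the highest, by small margins, and neither log2 fold change was called (0.22, adjusted p = 0.096, and 0.09, adjusted p = 0.55). As a result the Notch1 level per kilobase was 105.6 RPKM beside 70.7 RPKM of Notch3 in wild-type cells, and 123.4 RPKM beside 32.4 RPKM in Lmo2Tg cells.

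Heyl had 3.74, 3.50 and 4.53 CPM in wild-type, 3.57 and 4.43 CPM in p21-/-, 12.7 and 9.57 CPM in Lmo2Tg and 9.92 and 10.2 CPM in Lmo2Tg;p21-/- libraries. The transgenic libraries did not overlap the others, and the rise was 1.5 on the log2 scale (standard error 0.19, adjusted p = 1.6e-04) with p21 and 1.33 (standard error 0.21, adjusted p = 8.4e-04) without it. Dtx1 had 95.8, 119.9 and 123.6 CPM in wild-type, 104.7 and 94.5 CPM in p21-/-, 180.2 and 241.2 CPM in Lmo2Tg and 210.5 and 239.9 CPM in Lmo2Tg;p21-/- libraries. It rose by 0.90 (standard error 0.14, adjusted p = 5.7e-04) and 1.18 (standard error 0.15, adjusted p = 2.3e-04). Maml1 had 54.4 to 56.3 CPM in wild-type, 54.0 and 57.1 CPM in p21-/-, 85.5 and 69.2 CPM in Lmo2Tg and 85.9 and 81.0 CPM in Lmo2Tg;p21-/- libraries. Its rise was smaller, at 0.49 (standard error 0.09, adjusted p = 0.0023) and 0.59 (standard error 0.10, adjusted p = 0.0016). Heyl, Dtx1 and Maml1 thus passed the test in both comparisons, in the same direction.

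Hes1 and Nrarp were called with p21 present and not in its absence, and the test of that difference is given with the interaction. Hes1 had 83.6, 100.7 and 74.6 CPM in wild-type, 81.1 and 108.7 CPM in p21-/-, and 67.7 and 67.8 CPM in Lmo2Tg;p21-/- libraries. The 2 Lmo2Tg libraries, named L2 and L3 after their columns because these numbers do not identify single samples, had 107.2 and 290.6 CPM. They were above wild-type by 1.21 on the log2 scale (standard error 0.31, adjusted p = 0.011), and without L3 it was 0.31 (adjusted p = 0.21), so the call rested on that library. In p21-/- cells the log2 fold change with the transgene was -0.49 (standard error 0.35, adjusted p = 0.31), and with only these 4 libraries fitted its adjusted p was 0.032. Nrarp had 1.72, 1.78 and 1.57 CPM in wild-type, 1.82 and 1.58 CPM in p21-/-, 4.88 and 3.49 CPM in Lmo2Tg and 1.71 and 2.05 CPM in Lmo2Tg;p21-/- libraries. These are 24 to 34 reads outside Lmo2Tg and 66 and 51 reads within it, for a log2 fold change of 1.30 (standard error 0.24, adjusted p = 0.0021) with p21 and 0.15 (standard error 0.29, adjusted p = 0.73) without it. The antisense gene Gm38287 overlaps 79.4% of the Nrarp exon, and in a table counted without strand their reads cannot be told apart. For Notch1, Notch3 and Maml1 10.4%, 6.03% and 2.44% of the exon length is overlapped in this way.

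Lfng had 31.0, 31.4 and 41.6 CPM in wild-type, 30.8 and 26.2 CPM in p21-/-, 27.4 and 17.7 CPM in Lmo2Tg (L2 and L3) and 45.2 and 33.4 CPM in Lmo2Tg;p21-/- libraries. It fell with the transgene when p21 was present, with a log2 fold change of -0.63 (standard error 0.20, adjusted p = 0.034), and was 0.46 (standard error 0.22, adjusted p = 0.13) in p21-/- cells. The call was lost without L3 (-0.34, adjusted p = 0.26) and without wild-type replicate 3 (-0.47, adjusted p = 0.11). Rbpj ranged from 60.5 to 75.6 CPM and Fbxw7 from 45.3 to 58.1 CPM over the 9 libraries, and neither was called. Rbpj changed by -0.07 and 0.15 and Fbxw7 by -0.01 and -0.28 on the log2 scale with and without p21, with adjusted p of 0.053 for Fbxw7 in p21-/- cells and of at least 0.26 otherwise.

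**Figure D3:**
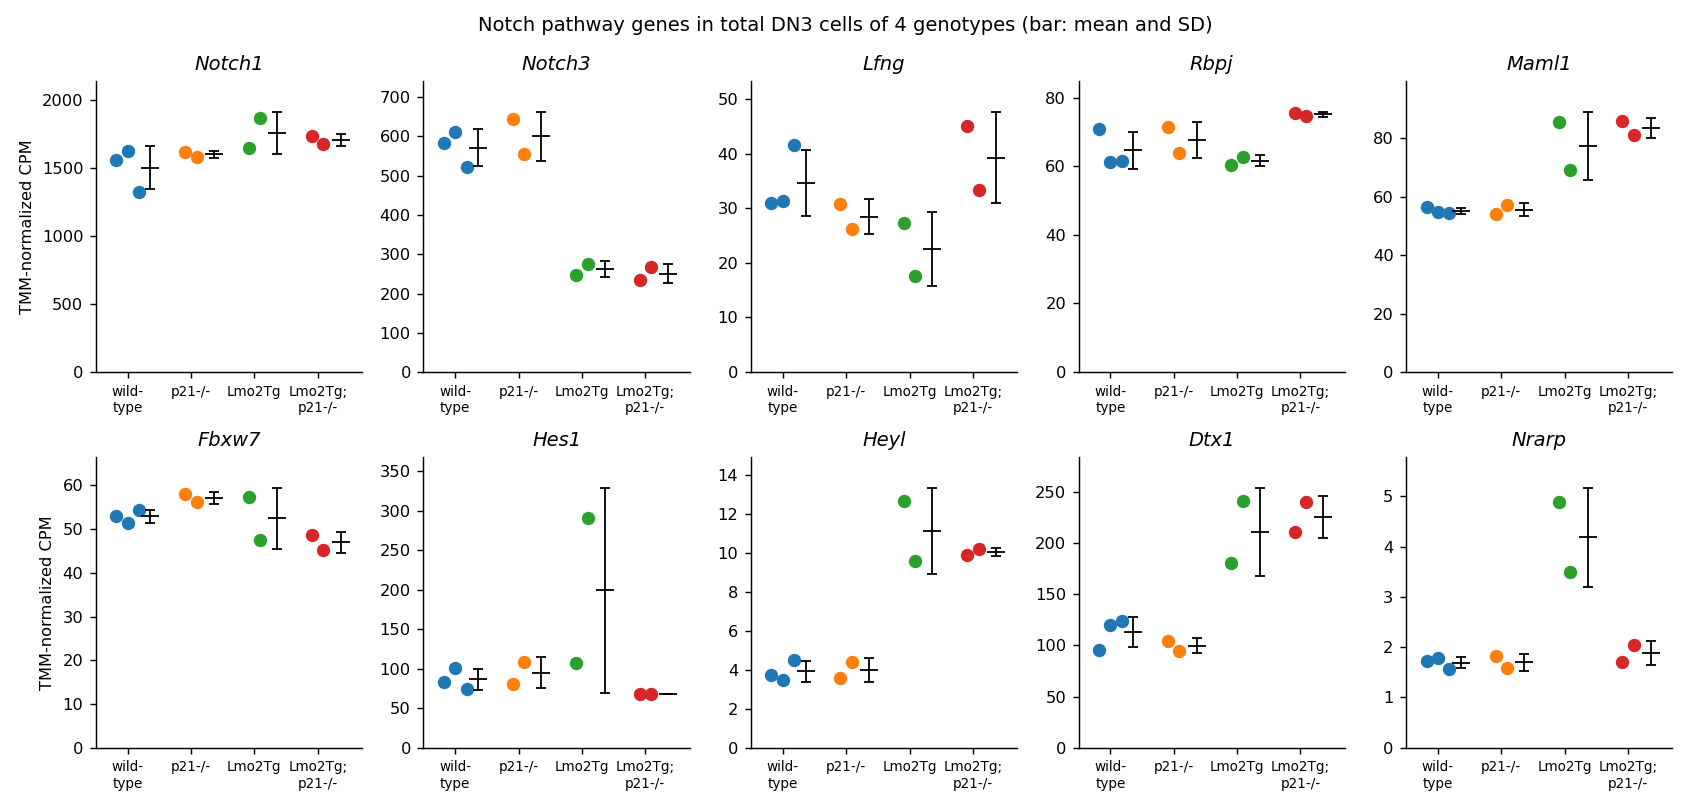
TMM-normalized CPM of the 10 genes in total DN3 cells of 4 genotypes (linear axis from 0), each point a library, the bar the mean and SD of 2 or 3 libraries. Notch3 is lower and Heyl, Dtx1 and Maml1 are higher in all 4 transgenic libraries, Nrarp is highest in both Lmo2Tg libraries, and Hes1 is highest in 1 of them (290.6 CPM) while the other (107.2 CPM) is near a p21-/- library (108.7 CPM).

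Of the other pathway genes, 74 passed the filter in the genotype experiment. With the transgene 14 were called higher and 13 lower when p21 was present, and 11 higher and 10 lower in p21-/- cells. These shares were near those of all genes, 19.7% and 16.9% with p21 and 16.3% and 14.4% without it. Nuclear coactivators held 4 genes called higher of 11 in each comparison, with 0 lower with p21 and 2 lower (Kat2a and Cdk8) without it, and the list as a whole was not tested. Ep300 and Med12, a Mediator kinase-module subunit, and Maml2, a paralog of Maml1, were among those called higher in both. Notch2, a further receptor, had 78.5, 79.5 and 72.8 CPM in wild-type, 90.2 and 89.8 CPM in p21-/-, 52.8 and 57.4 CPM in Lmo2Tg and 63.9 and 55.3 CPM in Lmo2Tg;p21-/- libraries. It fell in both comparisons, as Notch3 did, with log2 fold changes of -0.48 (adjusted p = 0.0017) and -0.60 (adjusted p = 8.2e-04).

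The T-lineage target list again moved both ways, with 4 higher and 5 lower of 15 with p21, and 3 higher and 3 lower without it. Ptcra, the pre-T-cell-receptor alpha chain, had 134.1 to 186.2 CPM in wild-type, 156.8 and 132.0 CPM in p21-/-, 26.0 and 55.6 CPM in Lmo2Tg and 22.4 and 35.8 CPM in Lmo2Tg;p21-/- libraries (log2 fold changes of -1.90 and -2.30, adjusted p = 6.2e-04 and 3.1e-04). Hhex, a homeobox factor of early progenitors, had 2.36 to 3.69 CPM in wild-type and 69.9 and 86.6 CPM in Lmo2Tg libraries, a log2 fold change of 4.6 (adjusted p = 5.1e-08). Trib2, a pseudokinase known as a Notch1 target in leukaemia, rose by 2.28 and 2.50. Gzmb, a granule protease, was at 0 to 2 reads in wild-type and at 6.88 and 7.25 CPM in Lmo2Tg libraries. Myc and Il7r fell by 0.88 and 0.72 on the log2 scale with p21, and their changes of -0.52 and -0.46 in p21-/- cells were not called. Hey1, a repressor of the Hes and Hey family, had 10.9 and 7.31 CPM in Lmo2Tg libraries, 0.00 to 1.21 CPM in wild-type, 0.234 and 3.61 CPM in p21-/- and 0.571 and 0.302 CPM in Lmo2Tg;p21-/- libraries. It was called higher in Lmo2Tg than in wild-type cells (log2 fold change 3.64, standard error 0.80, adjusted p = 0.0049). Neurl3, a ubiquitin ligase, rose by 3.33 and 2.52, while Furin, which processes the Notch precursor, was called in p21-/- cells (0.66, adjusted p = 0.0017) and not with p21 present (0.23, adjusted p = 0.11). Aph1c, a gamma-secretase subunit with a close paralog in Aph1b that could share its reads, fell by 1.32 and 2.93 from at most 3.87 CPM.

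Markers of other stages differed between the same groups. The 10 DN3 markers summed to 9930.6 to 11186.7 CPM without and 7591.8 to 8362.3 CPM with the transgene. Il2ra and Tcf7 overlapped between these sets, and the other DN3 markers were lower in every library with the transgene. The 10 early progenitor markers, which include Hhex, summed to 130.5 to 156.5 CPM without and 345.3 to 673.3 CPM with the transgene. The 7 markers of later alpha-beta T cells summed to 110.7 to 123.7 and 263.5 to 443.9 CPM, with all 7 above 1 CPM in every library. Of these 7, Cd5, Cd6 and Cd8a were higher in every library with the transgene than in every library without it. Cd4, Cd8b1, Cd69 and Ccr7 overlapped between these sets. Cd69 had 105.4 and 153.2 CPM in Lmo2Tg but 19.2 and 17.2 CPM in Lmo2Tg;p21-/- libraries. The 8 dendritic markers summed to 173.4 to 231.8 CPM without and 53.7 to 58.4 CPM with the transgene, 7 innate and gamma-delta markers to 79.8 to 115.1 and 179.4 to 270.2 CPM, and 9 thymic stroma markers to 180.6 to 203.7 and 216.4 to 279.2 CPM. Few genes carried each of these sums. Per library, 2 to 3 of the dendritic, 2 to 4 of the innate and gamma-delta and 2 to 3 of the stroma markers were above 1 CPM. The part of the listed cell types in the values of the Notch genes was not tested.

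**Figure D4:**
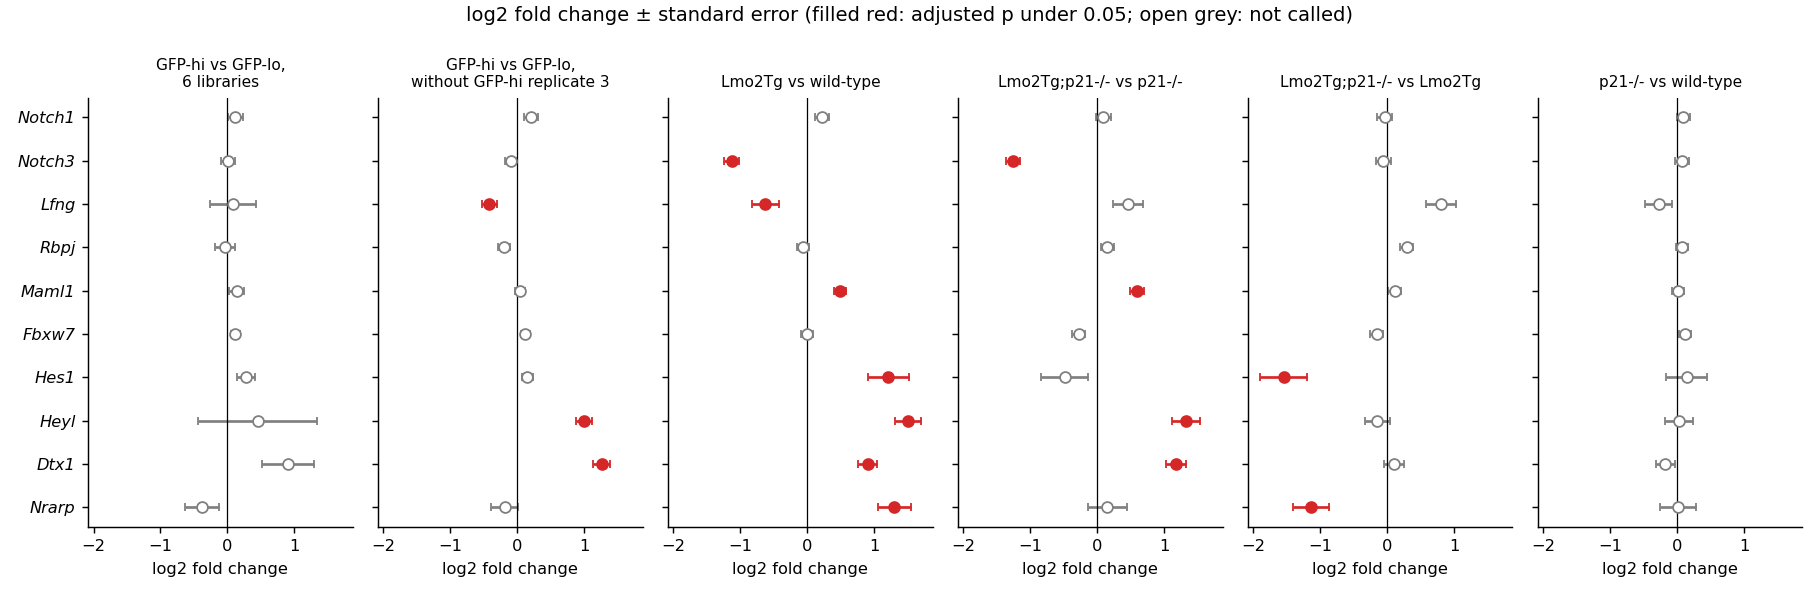
Log2 fold change with its standard error (edgeR) of the 10 genes in 6 panels: GFP-hi against GFP-lo over 6 libraries and without GFP-hi replicate 3, and 4 genotype comparisons. Filled red points have an adjusted p under 0.05 and open grey points do not. Notch3, Maml1, Heyl and Dtx1 are filled in both transgene panels, Hes1 and Nrarp in Lmo2Tg against wild-type and, on the other side of 0, in Lmo2Tg;p21-/- against Lmo2Tg.

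The third comparison asked what loss of p21 changed, in Lmo2Tg cells and in cells without the transgene. In Lmo2Tg cells Hes1 and Nrarp were called lower and none of the 10 higher, against 3.35% of genes called higher and 3.59% lower. It shares the Lmo2Tg libraries with the comparison against wild-type, so the calls on Hes1 and Nrarp in both rest on the same high values. Hes1 had 107.2 and 290.6 CPM in Lmo2Tg and 67.7 and 67.8 CPM in Lmo2Tg;p21-/- libraries, a log2 fold change of -1.55 (standard error 0.35, adjusted p = 0.026). Without L3 it was -0.66 (adjusted p = 0.10). Nrarp had 4.88 and 3.49 against 1.71 and 2.05 CPM, a log2 fold change of -1.14 (standard error 0.27, adjusted p = 0.033). Without L2 it was -0.89 (adjusted p = 0.12), DESeq2 gave an adjusted p of 0.071, and leaving out wild-type replicate 1 or 2 gave 0.058 or 0.059. With either Lmo2Tg;p21-/- library left out the fold stayed at -1.57 for Hes1 and was -1.03 or -1.29 for Nrarp, and neither was called in these fits, in which that group had 1 library and its spread was taken from the other groups. Neither was called with only these 4 libraries fitted (-1.57 and -1.15, adjusted p = 0.099 for both).

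The other 8 genes were not called. Lfng was higher in both Lmo2Tg;p21-/- libraries than in either Lmo2Tg library, with a log2 fold change of 0.80 (standard error 0.22, adjusted p = 0.055). DESeq2 called it (adjusted p = 0.0057), as did edgeR without L2 (1.14, adjusted p = 0.028) and without wild-type replicate 3 (adjusted p = 0.046). Higher in the same way was Rbpj, at 75.6 and 74.7 against 60.5 and 62.8 CPM (0.29, standard error 0.10, adjusted p = 0.10). Notch1, Notch3, Maml1, Heyl, Dtx1 and Fbxw7 overlapped between these groups, with log2 fold changes from -0.16 to 0.11. For Notch3 the 95% interval ran from -0.31 to 0.19, for Dtx1 from -0.24 to 0.43 and for Heyl from -0.58 to 0.28. Among the 74 other pathway genes Hey1 was called lower (log2 fold change -4.39, standard error 1.01, adjusted p = 0.030) and none was called higher, with 15 at an unadjusted p under 0.05 in edgeR and 1 called by DESeq2 and by limma-voom. Hey1 and Nrarp were thus highest in both Lmo2Tg libraries, while for Hes1 the Lmo2Tg library L2 (107.2 CPM) was below a p21-/- library (108.7 CPM).

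Without the transgene, p21-/- and wild-type cells gave no call among the 10 genes or the 74 others, against 0.0507% of genes called higher and 0.0591% lower. Of the 10 none had an unadjusted p under 0.05, and DESeq2 and limma-voom called 0 too. Of the 74 others 1 had an unadjusted p under 0.05, with 0 called by DESeq2 or limma-voom. The log2 fold changes of the 10 ran from -0.28 (Lfng, adjusted p = 0.98, 95% interval from -0.72 to 0.16) to 0.14 (Hes1, 95% interval from -0.55 to 0.82). The interval was from -0.13 to 0.31 for Notch1 and from -0.58 to 0.60 for Nrarp.

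The difference between the p21 effects with and without the transgene was tested as an interaction, which also tests whether the transgene effect differed with p21. No gene of the 10 was called, with 3 at an unadjusted p under 0.05 in edgeR, 1 called by DESeq2 and 0 by limma-voom, against 0.279% of genes called higher and 1.1% lower. Those 3 were Hes1 (log2 -1.69, standard error 0.46, adjusted p = 0.10), Nrarp (-1.15, standard error 0.38, adjusted p = 0.15) and Lfng (1.08, standard error 0.30, adjusted p = 0.10). The gene called by DESeq2 was Lfng, at an adjusted p of 0.011. Without L2 Hes1 was called in edgeR (-2.24, adjusted p = 0.016), which leaves L3, with its 290.6 CPM, as the only Lmo2Tg library and takes the spread from the other groups. For the 4 genes called with the transgene in both p21 states, the interaction was not called and each interval held 0. It was -0.13 for Notch3 (95% interval from -0.47 to 0.20), 0.10 for Maml1 (-0.21 to 0.41), -0.17 for Heyl (-0.80 to 0.46) and 0.28 for Dtx1 (-0.17 to 0.73). The intervals also hold differences between the p21 states, so equal effects were not shown. None of the 74 other pathway genes was called in edgeR, DESeq2 or limma-voom, with 13 at an unadjusted p under 0.05 in edgeR.

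**Figure D5:**
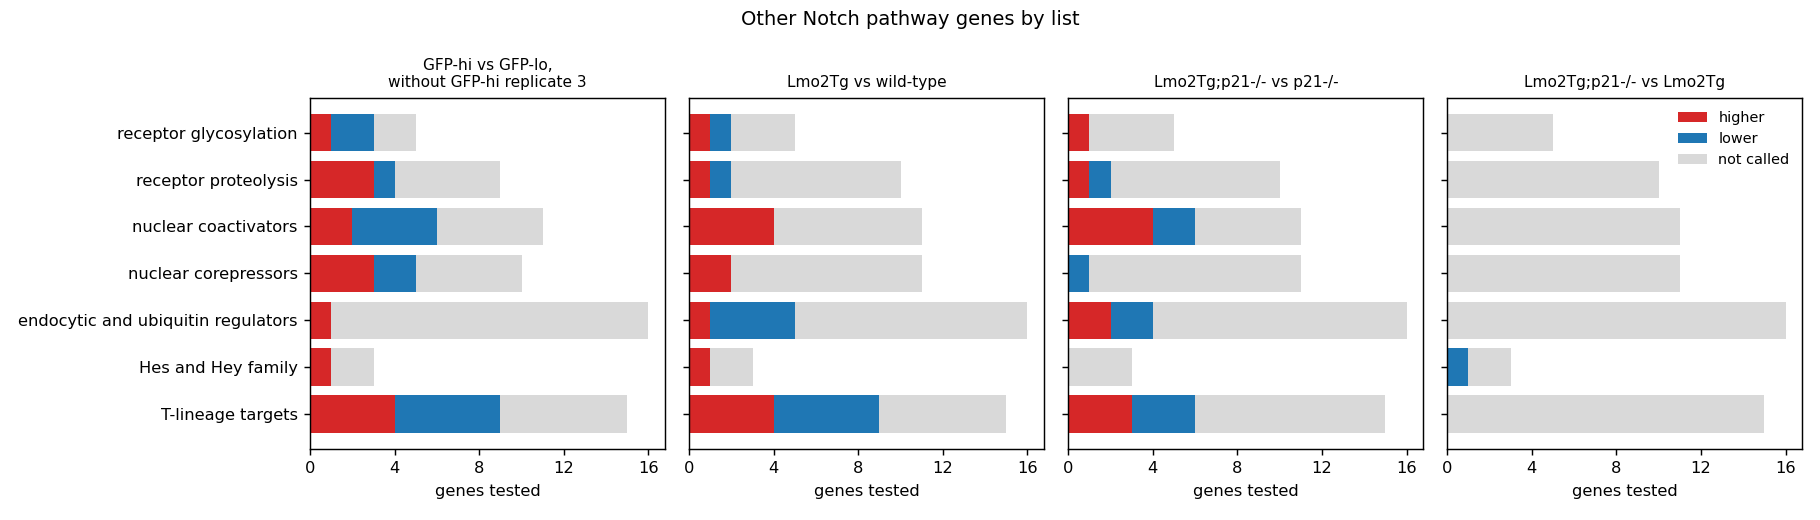
Number of other Notch pathway genes called higher (red), lower (blue) or not called (grey) in 7 of the lists, among those tested, in 4 comparisons. The T-lineage target list has 4 higher and 5 lower of 15 in Lmo2Tg against wild-type cells, and 1 gene (Hey1) is called in Lmo2Tg;p21-/- against Lmo2Tg cells.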

How the data were processed

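Poly-A RNA was sequenced from sorted DN3 thymocytes in 6 GFP and 9 genotype libraries. The values deposited by the authors are raw counts of reads for each protein-coding gene, with 1 table per experiment. Per the submitters' processing notes, STAR 2.4.2a, featureCounts, limma and the build mm10 were used. The names of the tables carry the words Reverse (GFP) and No (genotype), read here as the strand setting of the counting, so that genotype counts may include antisense reads. Multiply mapped reads can shift counts of paralogs. A total of 27 gene symbols of the genotype experiment had become dates, and symbols were taken by Ensembl identifier from the other table. The labels gave the groups. 1 p21-/- sample was not analysed here, and 1 column that matched no sample was not used.

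Counts were scaled by TMM and tested with edgeR 4.0.16 (R 4.3.3) by the quasi-likelihood test, after filterByExpr (minimum count 10, total 15), with Benjamini-Hochberg adjustment over all genes tested and a call at an adjusted p under 0.05. Groups of the genotype table shared 1 fit. CPM are counts over TMM-scaled library sizes and RPKM divides them by the summed exon length in GENCODE M21 (GRCm38), which matched 98.2% of identifiers. Intervals are at 95%. A count of 3 corresponds to 0.0964 to 0.216 CPM, a floor for counting error only. DESeq2 1.42.0, limma-voom (limma 3.58.1), RLE size factors, no filter, a stricter threshold, a replicate block, single libraries left out, only the groups compared, and scaling without chromosomes 2, 15 and 17 were the alternatives. Figures were drawn with matplotlib 3.10.9.

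All 10 genes were named in each comparison. Of the 85 other pathway genes, up to 5 called genes per direction were named by the size of their fold change, given a mean of 1 CPM or more and groups that did not overlap, and further names were chosen after their values were seen. A gene that this rule selects is not reported here. The genes and lists were chosen with earlier results of these data known. Since pools of equal number are not tied together by the labels, p-values measure the spread between these libraries.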

Additional observations from a re-analysis of the deposited data

Results flagged for a closer look

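For Hes1 and Lfng, the libraries with the transgene lay on opposite sides of those without it in the 2 p21 states. Hes1 was higher in both Lmo2Tg libraries than in each wild-type library and lower in both Lmo2Tg;p21-/- libraries than in each p21-/- library, and the difference of the transgene effects was -1.69 on the log2 scale. Lfng was lower in both Lmo2Tg libraries than in each wild-type library and higher in both Lmo2Tg;p21-/- libraries than in each p21-/- library, with a difference of 1.08. In edgeR's interaction test with the filter on low counts both had an adjusted p of 0.10, so the difference between the states was not called there. Without the filter edgeR called both, among 520 of 16028 genes (Hes1 -1.68, adjusted p = 0.005, and Lfng 1.1, adjusted p = 0.01). DESeq2 called Lfng (adjusted p = 0.011). In p21-/- cells neither transgene effect was called in the edgeR fit over all 9 genotype libraries (Hes1 -0.49, adjusted p = 0.31, and Lfng 0.46, adjusted p = 0.13). Other edgeR fits did call them. Hes1 was called with only the groups compared (adjusted p = 0.032). With a replicate block both were called (adjusted p = 0.0046 for Hes1 and 0.014 for Lfng). With p21 present the log2 fold changes were 1.21 for Hes1 and -0.63 for Lfng, and without L3 they were 0.31 and -0.34. How many other genes have this pattern was not counted.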

How the results depend on the processing

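The number of Notch genes called, 0 for GFP-hi against GFP-lo, 7 for Lmo2Tg against wild-type, 4 for Lmo2Tg;p21-/- against p21-/-, 2 for Lmo2Tg;p21-/- against Lmo2Tg, 0 for p21-/- against wild-type and 0 for the interaction, ranged from 0 to 3, 5 to 7, 4 to 6, 0 to 3, 0 to 0 and 0 to 1 when single libraries were left out. The counts over all genes then ranged from 273 to 4848, 2815 to 4248, 1914 to 4251, 60 to 1128, 8 to 18 and 0 to 449, against 1721, 4329, 3639, 822, 13 and 163. The log2 fold change of Lfng for GFP-hi against GFP-lo ranged from -0.42, without GFP-hi replicate 3 and called, to 0.34, without GFP-hi replicate 2. DESeq2 called 1 Notch gene (Dtx1, adjusted p = 0.048) and 2912 genes for GFP-hi against GFP-lo, 1 and 459 for the interaction, and 20 genes for p21-/- against wild-type. Without the filter these were 2 and 520 for the interaction and 21 for p21-/- against wild-type. At an adjusted p under 0.01 and over 2-fold, 261 genes remained for GFP-hi against GFP-lo, 3 Notch genes and 1153 genes for Lmo2Tg against wild-type, 983 genes for Lmo2Tg;p21-/- against p21-/-, 0 Notch genes and 97 genes for Lmo2Tg;p21-/- against Lmo2Tg, and 0 genes for the interaction. With only the groups compared, Lmo2Tg;p21-/- against Lmo2Tg gave 0 Notch genes and 404 genes. Same-numbered libraries are not known to be paired. Their deviations from group means correlated by -0.10 to 0.10 in the GFP libraries and by -0.25 to 0.31 in the genotype libraries. These values cannot decide it, since in a group of 2 libraries the deviations mirror each other and GFP-hi replicate 3 stood apart. A replicate block gave 7 Notch genes (Lfng, Hes1 and Fbxw7 added) for Lmo2Tg;p21-/- against p21-/- and 496 genes for GFP-hi against GFP-lo. The replicate block could not be fitted for comparisons with Lmo2Tg. Its columns, L2 and L3, have names that are also labels of GFP-lo samples and were given to the group without a number. RLE size factors and limma-voom left each of these counts within 1.5 times of its value, as did scaling without chromosomes 2, 15 and 17 for GFP-hi against GFP-lo. With groups of 2 or 3 libraries, calls on Hes1, Nrarp and Lfng changed when single libraries were left out, which can leave a group with 1 library assumed to vary like the others, and the causes were not tested.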

Other observations

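GFP-hi replicate 3 stood apart in further pathway genes, chosen after their values were seen. Lef1, a transcription factor of T-cell progenitors, was at 459.8 and 460.6 CPM for replicates 1 and 2 of GFP-hi, 84.6 CPM in replicate 3 and 148.5 to 208.3 CPM in GFP-lo libraries. Trib2 had 251.8 and 265.0 CPM, 42.3 CPM and 113.6 to 165.2 CPM in the same order. Both thus had the order of Heyl, with replicate 3 below the GFP-lo libraries. Dtx4, a relative of Dtx1, went the other way, with 6.24 and 5.22 CPM for replicates 1 and 2 of GFP-hi, 30.7 CPM in replicate 3 and 4.14 to 5.15 CPM in GFP-lo libraries. Gzmb had 237.7, 18.7 and 442.9 CPM in the GFP-hi libraries, in order of replicate, and 19.0 to 33.1 CPM in GFP-lo libraries, so that here replicate 2 was the one near the GFP-lo level.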
